A study of Mus musculus with 4 samples.

Results

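The let-7 and miR-98 guide strands are the 9 mature miRNAs mmu-let-7a-5p, mmu-let-7b-5p, mmu-let-7c-5p, mmu-let-7d-5p, mmu-let-7e-5p, mmu-let-7f-5p, mmu-let-7g-5p, mmu-let-7i-5p and mmu-miR-98-5p. They were taken by name from a table of small RNAs bound to the RNA-induced silencing complex (RISC) of the mouse brain. They are 9 of the 1029 miRNA names in that table, and 2090 of its 85704 sequences carried a member name. The Ago proteins of the RISC were pulled out of brain lysates with a GW182 peptide, and the RISC-bound short RNAs (R-sRNAs) were sequenced (Ago-RP-Seq). There were 2 libraries of 2-month-old mice (2M) and 2 of 18-month-old mice (18M), all from combined cortex and hippocampus of male C57BL/6J (BL6) mice. The number of mice behind a library is not given in the sources used here, so p-values measure the spread between these libraries. The comparison of the ages asks what the RISC of the brain holds in old compared with young mice.

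let-7 was found as a switch of developmental timing in worms, and in mammals its level rises as neural cells differentiate. Its guide strands share 1 seed, the bases that pair with target mRNAs, and repress growth and stem cell genes such as Lin28, Hmga2, Ras genes and Myc. LIN28 in turn blocks the maturation of let-7 hairpins and recruits enzymes that add uridines to them.

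The mature sequences below show what the 9 guide strands share and where they differ. They come from RefSeq entries placed on GRCm38.p6, and all 9 members matched an entry. The bases in capitals are the seed at positions 2 to 8, counted from the 5′ end.
let-7a-5p: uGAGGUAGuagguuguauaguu
let-7b-5p: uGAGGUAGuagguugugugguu
let-7c-5p: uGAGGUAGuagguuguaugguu
let-7d-5p: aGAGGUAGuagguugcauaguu
let-7e-5p: uGAGGUAGgagguuguauaguu
let-7f-5p: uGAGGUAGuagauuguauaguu
let-7g-5p: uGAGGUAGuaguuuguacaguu
let-7i-5p: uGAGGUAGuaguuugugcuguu
miR-98-5p: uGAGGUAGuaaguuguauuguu

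All 9 had 22 bases and the same seed. Relative to let-7a-5p, with its base first, let-7c-5p differed by A19G, let-7e-5p by U9G and let-7f-5p by G12A. Differences at 2 positions separated let-7b-5p (A17G, A19G), let-7d-5p (U1A, U16C), let-7g-5p (G12U, U18C) and miR-98-5p (G11A, A19U) from let-7a-5p. let-7i-5p was the most distant, with 4 differences (G12U, A17G, U18C, A19U). Only let-7d-5p began with A.

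The 9 guide strands come from 12 hairpins, here placed on GRCm38.p6, with host genes from the GENCODE annotation. On chromosome 13, the minus strand of the long noncoding RNA 6720427I07Rik carries let-7a-1 (mature strand chr13:48538239-48538260), let-7f-1 (chr13:48537889-48537910) and let-7d (chr13:48536078-48536099) in exons. On chromosome 15, exons of the noncoding transcript Lncppara carry let-7c-2 (chr15:85706616-85706637) and let-7b (chr15:85707325-85707346). Introns of Huwe1, a ubiquitin ligase gene on chromosome X, carry let-7f-2 (chrX:151912353-151912374) and miR-98 (chrX:151913229-151913250). let-7c-1 (chr16:77599672-77599693) lies in an intron of Mir99ahg, let-7e (chr17:17830366-17830387) in an intron of Spaca6 and let-7g (chr9:106178846-106178867) in an intron of Wdr82. let-7i (chr10:122985698-122985719) lies on the minus strand in an exon of the transcribed pseudogene D630033A02Rik, and the let-7a-2 hairpin (chr9:41536716-41536811) lies in an intron of 3110039I08Rik. The table cannot say which hairpin a let-7a-5p, let-7c-5p or let-7f-5p read came from where the mature strands are identical.

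Values are in CPM, reads scaled to the same total in each library. The number of reads behind the scale was 9067007 to 11388999 per library, and 3 reads, taken as the floor, were worth 0.263 to 0.331 CPM, far below every member. Floors cover counting error only, since PCR copies are not independent molecules. Neuronal miRNAs (miR-124-3p, miR-128-3p, miR-9-5p; 3 of 3 found) summed to 184377 and 195044 CPM at 2M and 195706 and 169186 CPM at 18M as in brain tissue. Of these, miR-124-3p was lower in both 18M libraries (104115 and 107034 CPM at 2M, 98222 and 69405 CPM at 18M). miR-128-3p and miR-9-5p overlapped. miR-122-5p of liver was at 5.01 to 7.11 CPM. The summed markers of oligodendrocytes (2 miRNAs, 4119 to 6565 CPM), blood (2 miRNAs, 1075 to 2002 CPM), immune cells (4 miRNAs, 427 to 737 CPM) and muscle (2 miRNAs, 150 to 229.8 CPM) overlapped as sums between the ages. Single markers could differ from their sum: miR-486a-5p of blood and miR-142a-5p of immune cells were lower in both 18M libraries. miR-155-5p of immune cells, at 3.25 to 4.96 CPM, was higher in both.

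The family held 10.1% and 9.52% of all reads at 2M and 8.17% and 8.25% at 18M. let-7c-5p was the most abundant member, with 23675 and 22373 CPM at 2M and 19196 and 19031 CPM at 18M. By mean level it ranked 8th of the 1029 miRNA names. let-7a-5p followed with 16357 and 15898 CPM at 2M and 13501 and 13728 CPM at 18M. let-7f-5p had 15314 and 13862 CPM at 2M and 13623 and 12426 CPM at 18M. These 2 members could not be put in order at 18M, where their libraries overlapped, and let-7a-5p was above let-7f-5p in 3 of 4 libraries. let-7b-5p had 14297 and 12781 CPM at 2M and 12089 and 12304 CPM at 18M. It was below let-7f-5p within each of the 4 libraries, but their ranges overlapped at 2M.

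A middle group held let-7g-5p, let-7d-5p, let-7i-5p and let-7e-5p, whose order was the same in all 4 libraries with no overlap between neighbours at either age. let-7g-5p had 9972 and 10161 CPM at 2M and 7176 and 8875 CPM at 18M, with the widest spread of the 9 members between the 18M libraries (SD 1201 CPM). let-7d-5p had 8861 and 8401 CPM at 2M and 6390 and 6805 CPM at 18M. let-7i-5p had 6660 and 6823 CPM at 2M and 5443 and 5201 CPM at 18M. let-7e-5p had 4902 and 4255 CPM at 2M and 3871 and 3692 CPM at 18M. For each member of this group both 18M libraries were below both 2M libraries in CPM. The same held for 41.4% of the 456 miRNAs with a mean of at least 10 CPM.

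miR-98-5p was far below the others, with 643 and 584 CPM at 2M and 385 and 385 CPM at 18M. It ranked 155th by mean level, and let-7e-5p, the next member above it, was 8.37 times as abundant. let-7f-2 and miR-98 lie in the same gene, and let-7f-5p, which also has a hairpin on chromosome 13, was among the 4 most abundant members.

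**Figure D1:**
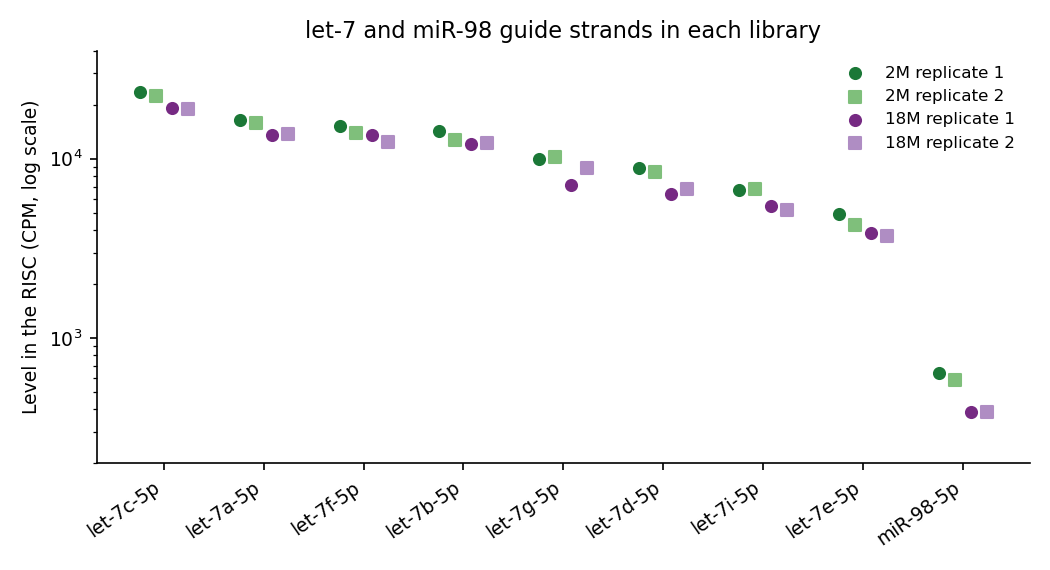
Level of each member in CPM (log axis) in the 4 libraries, with 1 point per library, ordered by mean level. All 9 members lie lower in the 18M libraries on this scale, from let-7c-5p at 19031 to 23675 CPM down to miR-98-5p at 385 to 643 CPM.

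In CPM, the 18M libraries were below the 2M libraries for 9 of 9 members. This pattern held for 41.4% of the 456 miRNAs tested (mean of at least 10 CPM), so it was common in these libraries. The family total was 100682 and 95138 CPM at 2M and 81674 and 82447 CPM at 18M, a mean 16.2% lower at 18M. The difference ranged from 9.92% lower for let-7b-5p to 37.2% lower for miR-98-5p. Rescaling by the median of ratios over miRNAs makes the typical miRNA equal between libraries. On that scale only 3 members (let-7d-5p, let-7i-5p and miR-98-5p) stayed below in both 18M libraries, against 19.5% of the 456 miRNAs. The rescaled family total overlapped, with 93204 and 88963 at 2M and 90201 and 86240 at 18M. In bulk tissue, fewer cells of a type and less RNA per cell cannot be told apart.

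miR-98-5p fell by 0.67 on the log2(CPM + 1) scale (SE 0.20; limma, unadjusted p = 0.0146) and was the only member with an unadjusted p under 0.05. Its p adjusted by Benjamini-Hochberg over the 456 miRNAs was 0.229 in limma, and 0.212 to 0.435 over the alternatives. Across all miRNAs 16.2% had an unadjusted p under 0.05 in limma and 12.1% were called lower, so 1 of 9 was near the background. After adjustment 0.219% of the miRNAs and none of the members passed in limma. Rescaled values of miR-98-5p were 595 and 546 at 2M and 426 and 403 at 18M. These did not overlap, but the log2 change of -0.46 had an unadjusted p of 0.0638 in limma, 0.0636 in edgeR and 0.0615 in DESeq2. None of the members passed 0.05 in these fits, beside 14% (rescaled limma), 13.6% (edgeR) and 15.1% (DESeq2) of the miRNAs, and DESeq2 called 4.17% after adjustment. The limma call was also lost without 2M replicate 1, without 18M replicate 1 and without 18M replicate 2. These fits leave 1 library at an age, and their log2 changes in CPM were -0.60, -0.67 and -0.67.

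For the other 8 members the log2 changes in CPM were -0.39 for let-7d-5p, -0.34 for let-7i-5p, -0.33 for let-7g-5p, -0.27 for let-7e-5p, -0.27 for let-7c-5p, -0.24 for let-7a-5p, -0.16 for let-7f-5p and -0.15 for let-7b-5p. Their SEs were 0.20 to 0.22, and none passed the threshold in limma. Leaving out 1 library kept these changes below 0 but moved some by over 1.5 times. Without 2M replicate 1, let-7b-5p was at -0.07, let-7f-5p at -0.09 and let-7e-5p at -0.17, and without 2M replicate 2 let-7b-5p was at -0.23. Without 18M replicate 1, let-7g-5p was at -0.18, and without 18M replicate 2 let-7f-5p was at -0.10. The median of the members was -0.27 beside -0.22 over all 456 miRNAs, and after rescaling -0.06 beside -0.02. let-7f-5p and let-7b-5p changed sign with the scaling, with log2 changes after rescaling of 0.04 and 0.06. The change relative to the typical miRNA was smaller than the change in CPM for all 9 members, and the SE was larger than the rescaled change for 8 of the 9 members.

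**Figure D2:**
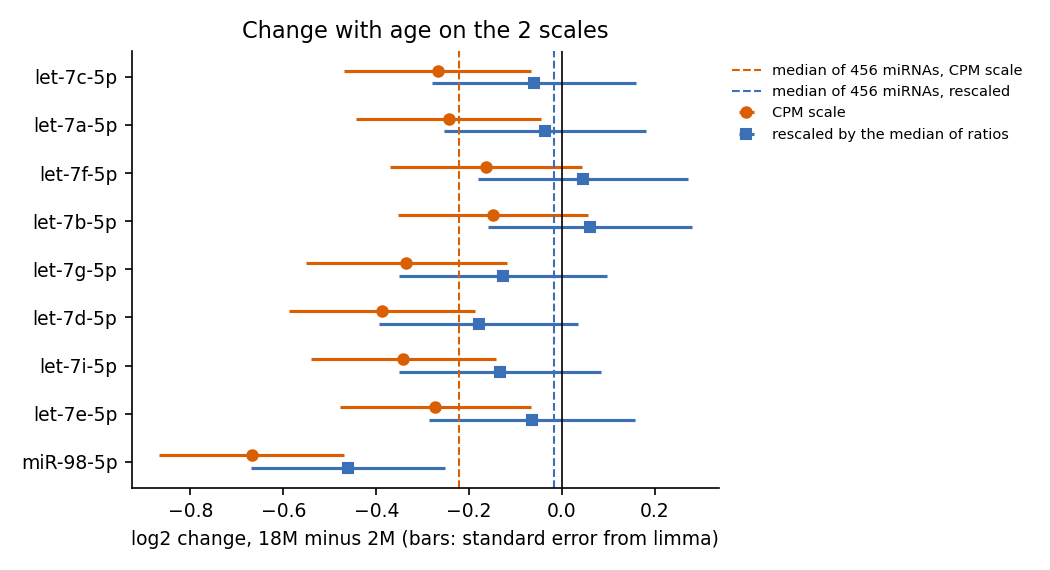
log2 change (18M minus 2M) of each member with its standard error from limma (n = 2 libraries per age), in CPM and after rescaling by the median of ratios. Dashed lines mark the median of all 456 miRNAs, -0.22 in CPM and -0.02 rescaled, and miR-98-5p lies furthest from both.

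The share of each member in the family does not depend on the scaling. miR-98-5p held 0.639% and 0.614% of family reads at 2M and 0.472% and 0.467% at 18M. let-7d-5p held 8.80% and 8.83% at 2M and 7.82% and 8.25% at 18M. let-7b-5p went the other way, from 14.2% and 13.4% at 2M to 14.8% and 14.9% at 18M. The ages did not overlap for these 3 members. let-7c-5p held 23.5% in both 2M libraries and 23.5% and 23.1% at 18M, just without overlap. The shares of let-7a-5p (16.2% to 16.7%), let-7e-5p, let-7f-5p, let-7g-5p and let-7i-5p overlapped. The mean shares differed by at most 1.05 percentage points between the ages, in let-7b-5p. Leaving out a library moved this limit: without 18M replicate 2 the difference was 1.79 points for let-7f-5p and -1.51 points for let-7g-5p, and without 2M replicate 1 it was 1.43 points for let-7b-5p. These shares got no test. With 2 libraries per age a lack of overlap is weak by itself, since the smallest possible two-sided exact permutation p is 0.333.

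A shift of the 5′ end of a guide strand moves its seed. Of the member reads, 98.0% to 98.3% began at the annotated first base, 1.03% to 1.26% began 1 base later and 0.318% to 0.398% began 1 base earlier. The study scores R-sRNAs by the 6mer seed at positions 2 to 7, and gives each seed the viability of 3 mouse cell lines that received a short duplex carrying it, in percent of control. The seed GAGGUA held 97.9% and 98.0% of member reads at 2M and 97.8% and 98.0% at 18M, and its viability was 50.3%. The difference of -0.0750 percentage points between the ages was within the spread between replicates (two-sided exact permutation p = 0.667, n = 2 per age, where the smallest possible p is 0.333). The seed AGGUAG of reads starting 1 base later (viability 60.2%) held 1.03% to 1.26%, and the seed UGAGGU of reads starting 1 base earlier (viability 20.7%) held 0.264% to 0.324%. Among all 112 seeds of member reads, only GAGGUA and AGGUAG held more than 1%.

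In the whole table, GAGGUA made up 9.97% and 9.43% of reads at 2M and 8.09% and 8.18% at 18M, and members held 98.8% to 98.9% of these. Most of the remainder had no miRNA name. Other miRNA names with this seed were nearly absent, with let-7k at 1.41 to 3.03 CPM, miR-3962 at 0.331 to 1.61 CPM and let-7j at 0.0950 to 0.702 CPM. The mean viability of member reads was 50.3% or 50.4% in each library. Without the members, the mean of the table was 58.5% and 58.7% at 2M and 58.8% and 59.1% at 18M, against 57.7% and 57.9% at 2M and 58.1% and 58.4% at 18M with them. The family thus lay below the mean of the RISC in seed viability at both ages.

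The 3′ ends varied more. A sequence of 22 bases, equal to the RefSeq entry, was the commonest form of each member. It was 63.5% of let-7g-5p reads at 2M, 60.6% of let-7a-5p, 60.1% of let-7f-5p, 58.5% of let-7d-5p, 58.4% of let-7c-5p and 55.7% of miR-98-5p reads (means of 2 libraries). It was only 46.2% for let-7e-5p, 43.9% for let-7i-5p and 31.3% for let-7b-5p. In CPM, the most abundant single sequence was the form of 22 bases of let-7c-5p, with 13542 and 13321 at 2M and 10721 and 10793 at 18M. The form of 22 bases of let-7a-5p had 9857 and 9695 CPM at 2M and 7330 and 7939 CPM at 18M, and that of let-7f-5p 9281 and 8252 CPM at 2M and 7602 and 7321 CPM at 18M. Both were lower in the 18M libraries without overlap, as was let-7c-5p. The form of 21 bases of let-7f-5p had 4071 and 3588 CPM at 2M and 4066 and 3349 CPM at 18M, and overlapped. The forms of 21 bases of let-7c-5p (4442 and 3624 CPM at 2M, 3535 and 3356 CPM at 18M) and let-7a-5p (3915 and 3554 CPM at 2M, 3632 and 3302 CPM at 18M) were also among the 10 most abundant member sequences. Of these last 2, only let-7c-5p did not overlap between the ages. Of the forms of 22 bases, let-7g-5p had 6303 and 6479 CPM at 2M and 4170 and 5536 CPM at 18M. That of let-7d-5p had 5128 and 4972 CPM at 2M and 3472 and 3837 CPM at 18M. The one of let-7e-5p had 2239 and 1987 CPM at 2M and 1636 and 1674 CPM at 18M, and none of these overlapped. How many of all sequences did the same was not counted. Among the miRNAs, 41.4% were lower at 18M in CPM without overlap. That share is no background for single sequences. The median log2 change in limma was -0.22 over 456 miRNAs and -0.01 over 14287 sequences.

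The forms of let-7i-5p and let-7b-5p are printed here as the table writes them, with T for U, because they depart from the rest in opposite ways. A base in capitals does not match the hairpin.
let-7b-5p, 20 bases: tgaggtagtaggttgtgtgg
let-7b-5p, 21 bases: tgaggtagtaggttgtgtggt
let-7b-5p, 22 bases: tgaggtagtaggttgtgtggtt
let-7b-5p, 23 bases: tgaggtagtaggttgtgtggttt
let-7i-5p, 22 bases: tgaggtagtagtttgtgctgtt
let-7i-5p, 22 bases and A: tgaggtagtagtttgtgctgttA
let-7i-5p, 22 bases and U: tgaggtagtagtttgtgctgttT

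let-7b-5p was spread over 4 lengths. The form of 22 bases had 4416 and 4063 CPM at 2M and 3534 and 3607 CPM at 18M. The form of 20 bases, which ends in GG, had 2711 and 2428 CPM at 2M and 2601 and 2524 CPM at 18M. Reads of 20 nt of any end made up 20.8% and 20.98% of let-7b-5p at 2M and 24.03% and 22.8% at 18M, while in the other 8 members they made up at most 8.26%. let-7c-5p, which differs from let-7b-5p by 1 base (position 17), had 6.95% and 6.89% at 2M and 7.87% and 7.53% at 18M. let-7e-5p had 6.30% and 6.80% at 2M and 8.26% and 7.94% at 18M.

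let-7i-5p carried the most added bases. Tailed reads, which matched the hairpin except for 1 to 3 bases at the 3′ end, were 31.7% and 32.4% of let-7i-5p at 2M and 31.5% and 33.0% at 18M. Reads with 1 added A were 15.9% and 16.5% at 2M and 15.5% and 17.4% at 18M, and those with 1 added U were 12.2% and 12.1% at 2M and 12.4% and 12.5% at 18M. The form with A on the full 22 bases had 997 and 1060 CPM at 2M and 779 and 855 CPM at 18M, against 2985 and 2935 CPM, and 2367 and 2269 CPM, for the form of 22 bases alone. The ages differed little in these shares beside the gap to the other members. Over the whole family, tailed reads were 10.1% and 10.5% at 2M and 11.1% and 10.3% at 18M, with 6.02% to 6.95% for 1 added A and 1.36% to 1.49% for 1 added U.

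Added U can be seen only where the hairpin does not itself continue with U. The base after position 22 is G in the hairpins of let-7e, let-7f-1, let-7i and miR-98, and U in the hairpins of let-7a, let-7b, let-7c, let-7d, let-7f-2 and let-7g. let-7e-5p had 7.06% and 7.25% of reads with 1 added U at 2M and 5.38% and 6.99% at 18M, and miR-98-5p had 2.29% to 3.21%. In the members with U in a hairpin, a read of 23 bases ending in U counts as templated, so their low shares do not show that U was not added. Added A at position 23 could be seen in all 9 members. An A after base 23 counts as templated where the hairpin has A there, as in let-7a-2, let-7c-1 and let-7e. The share of reads with 1 added A lay between 3.14% of miR-98-5p in an 18M library and 8.60% of let-7b-5p in an 18M library, apart from let-7i-5p.

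**Figure D3:**
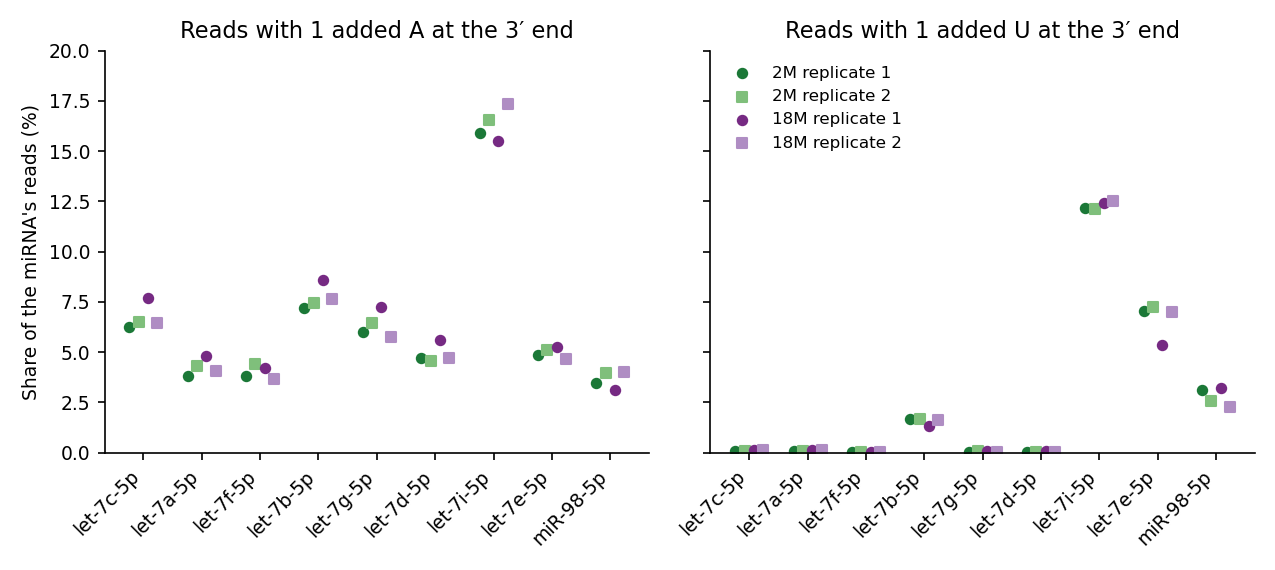
Share of each member's reads (%) with 1 base, A (left) or U (right), added to a stretch of the hairpin at the 3′ end, with 1 point per library. let-7i-5p stands above the other members in both panels, at 15.5% to 17.4% for A and 12.1% to 12.5% for U, and an added U at position 23 cannot be seen in let-7a, b, c, d, f and g.

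The 18M libraries held a larger share of short member reads. Reads of 22 nt made up 55.5% and 56.5% of member reads at 2M and 52.3% and 54.3% at 18M. Reads of 20 nt made up 7.17% and 7.45% at 2M and 8.88% and 8.61% at 18M, and all reads of 20 nt or less 8.12% and 8.39% at 2M and 10.1% and 9.82% at 18M. Reads of 24 nt made up 1.27% and 1.20% at 2M and 1.07% and 1.11% at 18M. The ages did not overlap in these 4 shares, whereas they overlapped for 21 nt (21.3% to 24.9%) and 23 nt (11.5% to 12.5%). The mean share of 20 nt or less was 1.71 percentage points higher at 18M, and 1.57 to 1.85 points higher when a library was left out. In the pooled reads of all other named miRNAs this share was 14.7% and 16.2% at 2M and 16.6% and 14.3% at 18M, with overlap. That pool is cut at 20 nt whatever the commonest length of each miRNA.

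The share of reads with a 3′ end other than the commonest of the member was 45.04% and 44.1% at 2M and 48.6% and 46.4% at 18M. The means differed by 2.92 percentage points (two-sided exact permutation p = 0.333, which is the smallest possible here). Without 18M replicate 1 the difference was 1.86 points, and without 18M replicate 2 it was 3.98 points.

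Member by member, the share of 20 nt or less was higher in both 18M libraries for 8 of 9 members. This happened for 33.3% of the 456 miRNAs for the share of reads at least 2 nt shorter than their commonest sequence. Of the 447 miRNAs outside the family, 155 had a rise in that share at least as large as the members' median of 1.10 percentage points. let-7b-5p had 22.3% and 22.6% at 2M and 25.9% and 24.8% at 18M. let-7a-5p had 5.93% and 6.22% at 2M and 8.37% and 8.08% at 18M. let-7e-5p had 7.94% and 8.03% at 2M and 10.2% and 9.62% at 18M. The differences in the other members ran from 0.746 percentage points in miR-98-5p, whose ages overlapped, to 1.10 points in let-7f-5p and in let-7d-5p. The mean read length was lower in both 18M libraries for 7 of 9 members, by at most 0.0877 nt, and for 34.4% of the 456 miRNAs. The length shift was small in each member, and many other miRNAs of the same libraries shared its direction.

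**Figure D4:**
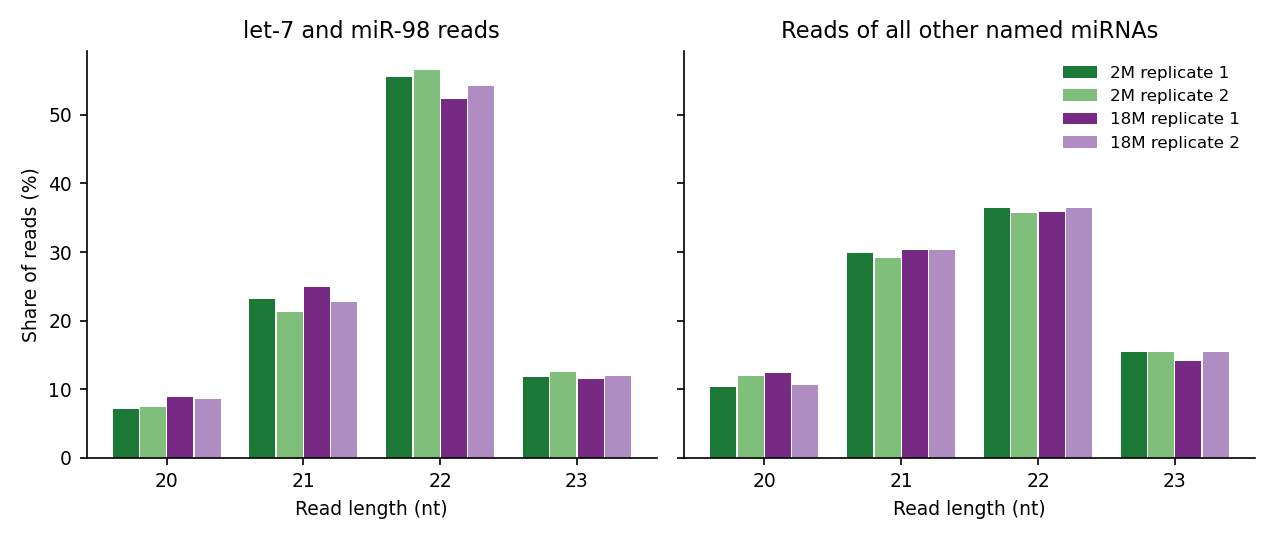
Share of reads (%) of 20, 21, 22 and 23 nt in each library, for the 9 members (left) and for all other named miRNAs (right). Among the members, 20 nt reads were 7.17% and 7.45% at 2M and 8.88% and 8.61% at 18M. The ages overlapped for 20 nt reads of the other miRNAs, pooled whatever their commonest length.

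The same was seen in the templated forms that begin at the annotated base. Each member had 1 such sequence from 19 to 22 nt, and the median log2 change in CPM over these 9 was 0.18 for 19 nt, 0.00 for 20 nt, -0.19 for 21 nt and -0.35 for 22 nt. Over 10 such sequences of 23 nt it was -0.33, and over 9 of 24 nt, which came from 6 members, it was -0.52. For sequences of other miRNAs, whatever their end, the medians were 0.08 for 19 nt, 0.05 for 20 nt, 0.02 for 21 nt, -0.03 for 22 nt, -0.04 for 23 nt and -0.08 for 24 nt. Within a member the scaling cancels. The log2 change was higher for the form of 20 bases than for the form of 22 bases in 9 of 9 members, by 0.20 (let-7c-5p) to 0.52 (let-7a-5p) on the log2 scale, with a median of 0.33. In the other 349 miRNAs with both forms, the form 2 bases shorter than the commonest had the higher change in 68.2%, with a median of 0.19. Put as a ratio, let-7b-5p had 61.4 and 59.8 reads of 20 nt per 100 reads of 22 nt at 2M and 73.6 and 70.0 at 18M. let-7a-5p had 6.91 and 7.63 at 2M and 10.8 and 10.1 at 18M. The ratio was higher in both 18M libraries for 7 of 9 members. It overlapped for let-7i-5p (6.12 and 9.12 at 2M, 9.21 and 9.02 at 18M) and for miR-98-5p (4.73 and 6.82 at 2M, 7.89 and 5.66 at 18M).

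**Figure D5:**
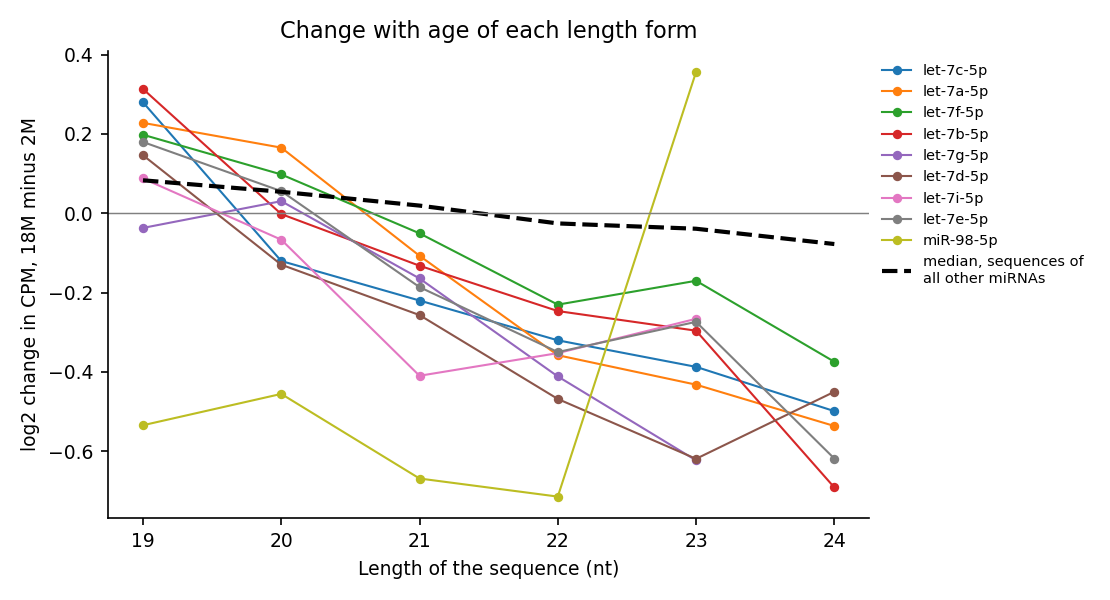
log2 change in CPM (18M minus 2M) of templated sequences of 19 to 24 nt that begin at the annotated first base, 1 line per member, with the mean where a length has several such sequences. The median over these member sequences goes from 0.18 at 19 nt to -0.52 at 24 nt (6 members), the dashed median of other miRNAs from 0.08 to -0.08, and the 23 nt point of miR-98-5p rests on 1.05 to 2.93 CPM.

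Of the 2090 member sequences, 605 had a mean of at least 1 CPM and were tested singly. limma called 21 at an unadjusted p under 0.05, 18 of them lower at 18M. That is 3.47% of the member sequences tested, beside 10.1% of all 14287 sequences tested, of which 4.23% were called lower. After adjustment none of the member sequences passed in limma (0.042% of all sequences), edgeR (0.021%) or DESeq2 (0.651%). Unadjusted, DESeq2 called 4 member sequences, beside 6.59% of all. In limma, fewer member sequences and fewer of all sequences were called whenever a library was left out. The largest drop in CPM among the called ones was that of the form of 22 bases of miR-98-5p, with 353 and 331 CPM at 2M and 201 and 214 CPM at 18M (log2 change -0.71, SE 0.27; limma, unadjusted p = 0.0278, adjusted p = 0.436). Its form of 21 bases had 188 and 149 CPM at 2M and 108 and 101 CPM at 18M (unadjusted p = 0.0474). The next 3 by size of change are printed because each departs from the annotated form, the first by a hairpin base before the 5′ end, the others by added bases in capitals.
let-7d-5p, 1 base earlier: aagaggtagtaggttgcatagtt
let-7i-5p and UU: tgaggtagtagtttgtgctgttTT
let-7f-5p and AA: tgaggtagtagattgtatagttAA

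The let-7d-5p form that starts 1 base earlier has the seed AGAGGU. It had 20.4 and 21.6 CPM at 2M and 12.4 and 12.7 CPM at 18M (limma, unadjusted p = 0.0484). The let-7i-5p form with UU had 12.1 and 16.6 CPM at 2M and 5.20 and 8.16 CPM at 18M (unadjusted p = 0.0184). The let-7f-5p form with AA had 12.97 and 14.8 CPM at 2M and 8.13 and 7.28 CPM at 18M (unadjusted p = 0.0375). All 3 were rare beside the form of 22 bases of the same member.

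The miR-99, miR-100 and miR-125 families lie in clusters with let-7 and have other seeds. Of 5 such miRNAs, 1 passed the unadjusted threshold in limma, beside 16.2% of all miRNAs. miR-99b-5p, which lies with let-7e, had 2949 and 1954 CPM at 2M and 1235 and 1273 CPM at 18M. It fell by 0.94 on the log2 scale (SE 0.26; limma, unadjusted p = 0.0102, adjusted p = 0.229), and by 0.73 after rescaling (unadjusted p = 0.0271). Without 18M replicate 1 its unadjusted p in limma was 0.0542. let-7e-5p changed by -0.27 in the same libraries. miR-125a-5p of the same cluster had 5502 and 7100 CPM at 2M and 6636 and 4256 CPM at 18M, and overlapped. miR-99a-5p, which lies with let-7c-1, had 15490 and 9768 CPM at 2M and 17695 and 13779 CPM at 18M, a log2 change of 0.34 that did not pass and ran from 0.01 (without 2M replicate 2) to 0.68 (without 2M replicate 1). miR-125b-5p and miR-100-5p had log2 changes of -0.43 and -0.35 that did not pass. Without 2M replicate 1 they were -0.13 and 0.03, and without 2M replicate 2 they were -0.74 and -0.74. A difference between these miRNAs and the let-7 members was not tested.

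The 3 miRNAs outside the family whose centred log2(CPM + 1) values lay nearest to the family total over the 4 libraries were miR-134-5p (Euclidean distance 0.0700), miR-488-3p (0.0861) and miR-181d-5p (0.0894). miR-134-5p had 223 and 223 CPM at 2M and 183 and 191 CPM at 18M.

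Some single markers of other cells passed an unadjusted p under 0.05 in limma, as did 16.2% of the 456 miRNAs. After adjustment 0.219% of the miRNAs passed. miR-126a-3p of endothelium had 9242 and 8854 CPM at 2M and 2557 and 6489 CPM at 18M (limma, unadjusted p = 0.0345). The 4 miRNAs listed for choroid plexus and epithelium summed to 26521 and 45248 CPM at 2M and 52985 and 58022 CPM at 18M, with miR-200b-3p (unadjusted p = 0.0164) and miR-429-3p (unadjusted p = 0.0328) called higher. miR-204-5p, the choroid plexus marker among them, overlapped with 2100 and 2623 CPM at 2M and 2256 and 2786 CPM at 18M, so the higher sums came from the miR-200 family. Of the muscle miRNAs, miR-133a-3p was called higher, with 104 and 55.0 CPM at 2M and 129 and 147 CPM at 18M (limma, unadjusted p = 0.0395), while miR-1a-3p had 89.8 and 95.4 CPM at 2M and 62.2 and 83.3 CPM at 18M and did not pass. The part of these cells in the values of the let-7 and miR-98 guide strands was not tested.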

How the data were processed

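Small RNAs bound to the Ago proteins were sequenced from 4 libraries, and the table holds reads of 15 to 33 nt. The labels give 250 mg of tissue per library, and the study's methods a smaller amount per pull-down. The authors trimmed the reads (Trim Galore, version not given), compiled them, dropped rare ones, named them by BLAST against mouse small RNA lists and deposited CPM for each sequence. They also deposited a score, the 6mer seed viability in percent of control, which can pass 100, and a total over libraries that was not used. Other versions are not given in the sources used here.

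CPM were summed by miRNA name. Whole reads were recovered for 100% of values above 0, within 0.001 CPM. limma (two-sided, trend, age only) was fitted to log2(CPM + 1) over 456 miRNAs (mean of at least 10 CPM) and 14287 sequences (at least 1 CPM). The pseudocount shrinks log2 changes of low values. On the recovered reads edgeR's quasi-likelihood test called 62 miRNAs and 1360 sequences. p-values were adjusted by Benjamini-Hochberg over all features tested. As in the study's methods, rows were taken at an unadjusted p under 0.05.

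Member reads were aligned to the RefSeq hairpins as templated, tailed (up to 3 bases) or mismatched. Of member reads, 88.0% to 89.0% lay in a hairpin of their own name only, 0.0963% to 0.144% (2 sequences) in hairpins of several members, and 10.9% to 11.9%, tailed and mismatched reads included, in no hairpin of their own name, so that for those the name rests on the authors' match. The names in the text are all members, their commonest sequences, the 10 most abundant member sequences, the 5 called member sequences with the largest change in CPM, the 5 cluster miRNAs, names with the same seed, the 3 nearest miRNAs and the cell type markers. Other sequences and shares were chosen after their values were seen. The members and lists were chosen with earlier results of these data known. The fits were tested on simulated data with planted changes larger than those of the members. That test does not address changes of the size seen here. Versions were R 4.3.3, limma 3.58.1, edgeR 4.0.16, DESeq2 1.42.0, Python 3.11.15, scipy 1.17.1, pandas 2.3.3, numpy 2.4.6 and matplotlib 3.10.9.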

Additional observations from a re-analysis of the deposited data

Results flagged for a closer look

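Outside the named reads, 1775 sequences without a miRNA name were annotated by the authors to a let-7 or miR-98 hairpin, at a mean of 1238 CPM over the 4 libraries, above the limit that a count of 0 allows. They had 1333 and 1237 CPM at 2M and 1183 and 1198 CPM at 18M, which was 1.32% and 1.30% of the named member reads at 2M and 1.45% and 1.45% at 18M. Most carried 1 mismatch to 1 member (945 and 867 CPM at 2M, 798 and 827 CPM at 18M). Of those, 41.3% and 40.1% at 2M and 38.7% and 37.9% at 18M were U-to-C, and 19.3% to 22.4% were A-to-G. Of all 1775 sequences, 6 lay in hairpins of several members.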

How the results depend on the processing

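With 2 libraries per age, the limits of these results are the few replicates and the scaling. Of 126 log2 changes of the 9 members under alternatives, 114 kept their direction and side of the threshold (though not always their size), 6 (all of miR-98-5p) lost an unadjusted p under 0.05 and 6 reversed. let-7b-5p reversed to 0.0597 after rescaling, 0.0733 in edgeR and 0.0624 in DESeq2, and let-7f-5p to 0.0448, 0.0616 and 0.0508. Among the cluster miRNAs, miR-99a-5p ran from 0.0116 to 0.677, miR-125b-5p from -0.743 to -0.126 and miR-100-5p from -0.735 (without 2M replicate 2) to 0.0266 (without 2M replicate 1), and miR-125a-5p from -0.554 (without 18M replicate 1) to 0.0864 (without 18M replicate 2), with 0.0154 in edgeR and 0.00478 in DESeq2. The cause was not tested. The count of members with an unadjusted p under 0.05 (1) became 0 after rescaling, in edgeR, in DESeq2 and at an adjusted p under 0.05, and was 0 to 1 when a library was left out. The family total differed by -2863 CPM after rescaling and by -15849 CPM before. Over all miRNAs 74 calls (19 higher) became 125 with no filter, 43 with a minimum of 100 CPM and 1 after adjustment, and 64 (40 higher) after rescaling, 62 (39 higher) in edgeR and 69 (43 higher) in DESeq2. Of member sequences, 21 calls became 41 with no filter, 7 with a minimum of 10 CPM, 4 in DESeq2 and 0 after adjustment. They were fewer when a library was left out, as were the calls over all sequences. Over all sequences 1443 calls became 3327 with no filter, 424 with the higher minimum, 941 in DESeq2 and 6 after adjustment. Fewer or more sequences were tested under other filters. Pseudocounts of 0.1 and 5 and limma without the trend moved no count at an unadjusted p by over 1.5 times, while the 6 sequences called after adjustment became 3 with a pseudocount of 0.1 and without the trend.

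The replicate numbers only name the libraries (deviations of same-numbered libraries correlated at 0.18 over 456 miRNAs, which are not independent). With the replicate number as a block, 1 member, 79 miRNAs, 16 member sequences and 1530 sequences were called.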
